A study of Mus musculus with 15 samples.

Results

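Mouse cells of a line named HoxB, whose labelled cell type is Blood, were compared with and without an introduced receptor for granulocyte colony-stimulating factor that carries the change T618I. The 6 libraries were chosen by their labels, not by any measured value. The comparison takes 6 of the 15 libraries of the series: the 3 of CSF3R_ONLY, whose genotype label is CSF3R-T618I, and the 3 of EMPTY, whose genotype label is Control vectors. Where the fusion RUNX1-ETO is brought in, RUNX1-ETO_ONLY carried the fusion and RUNX1-ETO_FIRST carried both the fusion and the mutant receptor, with 3 libraries each. The name and genotype label of RUNX1-ETO_FIRST (RUNX1-ETO,CSF3R-T618I) put the fusion first. The remaining group, CSF3R_FIRST, also has 3 libraries and carried both, with the receptor put first (CSF3R-T618I,RUNX1-ETO). All groups share the line, but the sources used here do not give how the line was made, the cytokines in its medium, the number of clones, the promoter of the vectors or whether replicates were separate cultures. A p-value below therefore covers only the spread among such libraries, and that spread may be technical.

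The receptor encoded by Csf3r binds granulocyte colony-stimulating factor, activates JAK kinases and the factors STAT3 and STAT5, and drives progenitors to become neutrophils. Maturing neutrophils fill their granules in order: primary (azurophilic) granules with myeloperoxidase and serine proteases, then secondary granules with lactoferrin and lipocalin, then tertiary granules and secretory vesicles with gelatinase and chemoattractant receptors. Substitutions in the membrane-proximal part of the receptor, of which T618I is the best known, signal without ligand and are found in human chronic neutrophilic leukaemia. Mast cells and basophils come from myeloid progenitors that keep the factor GATA2, and they carry the high-affinity IgE receptor, proteases and histamine.

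Total counts were 17482995 to 17653679 in CSF3R_ONLY and 17007437 to 17391045 in EMPTY. EMPTY replicate 3 stood apart from its group. The chi-square per degree of freedom over genes was 69.5 and 75.0 between it and EMPTY replicates 1 and 2, against 4.16 between those, and 2.45 to 4.37 among the CSF3R_ONLY libraries. Its deviation from the group mean fell with transcript length (Spearman correlation across genes −0.54, against 0.43 and 0.46 in the other EMPTY libraries), and mitochondrial transcripts took 3.01% of its counts against 1.98% and 2.03%. Genes are not independent replicates in such a correlation. Results that rest on this library are given with and without it, and without it 4495 genes passed the test described below, of 13356 tested. In the whole series 4 libraries were low in long transcripts (the 4 libraries below). Beside EMPTY replicate 3 these were replicate 3 of CSF3R_FIRST and, of the 6 fusion libraries, replicate 3 of RUNX1-ETO_ONLY (correlation −0.45) and replicate 1 of RUNX1-ETO_FIRST (−0.42). The word voom below stands for limma's test with a weight per library. Markers of blood cells were present in all 6 libraries, with Ptprc, the leukocyte antigen CD45, at 317, 322 and 313 CPM in CSF3R_ONLY and 174, 166 and 112 CPM in EMPTY (CPM is the read count scaled by library size and TMM factor to 1000000 reads). In the blood cell identity list 7 of 10 genes rose and 0 fell in the comparison below.

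Csf3r itself (chromosome 4, 126024550 to 126044440, plus strand, mm10) was examined first. It was at 617, 626 and 622 CPM in CSF3R_ONLY and at 422, 465 and 373 CPM in EMPTY, so that all 3 receptor libraries lay above the controls. The rise was 1.48-fold (log2 0.57, standard error SE 0.0844 on the log2 scale, adjusted p = 7.31e-05 by edgeR's quasi-likelihood test). Controls carried transcripts of the cells' own gene. The sources used here do not name the species of the introduced sequence, so counts of Csf3r may miss or include its transcripts, and the counts cannot show the changed base.

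Of 13123 genes tested, 4347 passed an adjusted p of 0.05 (33.1%). Among these, 2617 rose (19.9%) and 1730 fell (13.2%), and 1505 also changed at least 2-fold, 1080 up and 425 down. Counts of risen and fallen list members below are to be read beside the 19.9% and 13.2% of all genes. With library sizes alone in place of TMM scaling factors, the median of all genes was −0.06 and not 0.00 on the log2 scale, with 2247 genes risen and 2333 fallen. The surplus of rises over falls among all calls therefore depended on the scaling. In these bulk libraries a larger share of cells of one type and more RNA per cell cannot be told apart. The groups did not overlap for 5880 genes (44.8%).

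Among genes whose mean log2 CPM reached 3, the largest rises belonged to mast cell proteases, myeloid surface receptors and cysteine protease inhibitors. Mcpt1 (chromosome 14, 56017971 to 56020384, plus strand), a chymase of mucosal mast cells, went from 0.110, 0.111 and 2.46 CPM in EMPTY to 901, 924 and 853 CPM in CSF3R_ONLY (log2 10.01, SE 0.480). Mcpt2 (chromosome 14, 56042041 to 56044642, plus strand), a related chymase, went from 0.165, 0.278 and 1.68 to 363, 359 and 339 CPM (log2 8.999). Both were near 0 in EMPTY replicates 1 and 2, and the higher EMPTY value lay in replicate 3, without which the log2 values were 12.86 and 10.57. The connective tissue mast cell chymase Cma1 (chromosome 14, 55941451 to 55944675, minus strand) rose from 1.27, 1.33 and 2.76 to 367, 359 and 351 CPM (202-fold). Nos2, inducible nitric oxide synthase, was at 2.48, 2.61 and 2.46 CPM in EMPTY and at 201, 206 and 212 CPM in CSF3R_ONLY, an 81.8-fold rise. Its replicates were tight in both groups. No library overlapped the other group, which the choice of these genes required.

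Surface receptors of myeloid cells followed. Tarm1, an activating receptor that myeloid cells show to T cells, rose 88.5-fold (log2 6.47), Pirb, the paired immunoglobulin-like inhibitory receptor B, rose 42.3-fold, and Pilra, another inhibitory receptor, rose 22.8-fold. Ifitm6, a member of the interferon-induced transmembrane family, rose 90.7-fold to 202 ± 11.3 CPM (SD, n = 3). Mmp8 (chromosome 9, 7558456 to 7568485, plus strand), the neutrophil collagenase, was at 2.53, 3.22 and 3.30 CPM in EMPTY and 160.3, 172 and 145 CPM in CSF3R_ONLY (log2 5.72, SE 0.126). The stefin A genes Stfa2, Csta2 and Stfa2l1, inhibitors of cysteine proteases that are abundant in neutrophils, rose 52.9-fold, 30.04-fold and 26.3-fold. These stefins are near-identical copies, as are some mast cell proteases and the relatives of Pirb, and how the authors counted reads shared between copies was not stated in those sources. Values of single members are therefore less certain than those of their families.

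Falls were smaller in size. Pou2f2, which encodes the factor OCT2 of B cells, fell from 30.3, 30.04 and 42.7 CPM in EMPTY to 2.39, 3.07 and 2.31 CPM in CSF3R_ONLY (log2 −3.73, SE 0.182). Ccnd2 (chromosome 6, 127125162 to 127152193, minus strand), cyclin D2 of the G1 phase, fell from 174, 159.6 and 147 to 17.4, 17.6 and 17.9 CPM (log2 −3.18). Kit (chromosome 5, 75574916 to 75656722, plus strand), the stem cell factor receptor of progenitors and mast cells, fell from 333, 348 and 312 to 77.6, 90.7 and 90.1 CPM (log2 −1.94). In each of these the highest CSF3R_ONLY library was below the lowest control, which the choice of these genes required. Fcnb, a neutrophil lectin that recognises sugars on microbes, fell by 2.82 on the log2 scale. Met, the hepatocyte growth factor receptor, fell by 1.93, the linker histone gene H1f10 by 1.81, the amino acid transporter gene Slc43a1 by 1.73 and the calmodulin-binding neurogranin gene Nrgn by 1.72. The cytoskeletal genes Nebl and Nav2 fell by 2.11 and 2.05, the membrane protein gene Tmem119 by 2.11, and Ldlrad4, an inhibitor of transforming growth factor beta signalling, by 1.94. All 12 falls and 12 rises passed under each alternative tried.

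**Figure D1:**
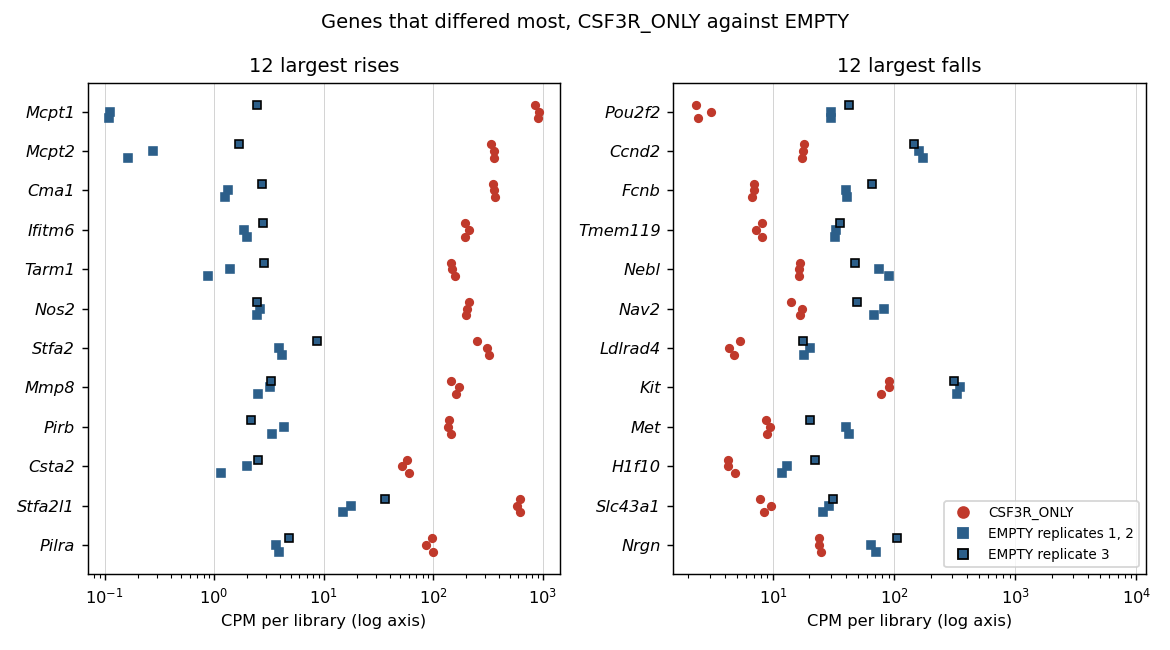
CPM of the 12 most risen and 12 most fallen genes in each library, on a log axis. Circles are the 3 CSF3R_ONLY libraries and squares the 3 EMPTY libraries, with EMPTY replicate 3 outlined in black. The groups do not overlap, which the choice of these genes required. EMPTY replicate 3 is the highest control for Mcpt1 at 2.46 CPM and the lowest for Met at 20.3 CPM.

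Neutrophil genes are given in the order in which granules are made. Primary granule genes, the earliest, were mixed: of 12 tested genes 6 rose and 3 fell, with a median log2 fold change of 0.10 (all tested genes, 0.00). Lyz2, lysozyme M, rose from 125, 115 and 142 CPM to 327, 330.4 and 339 CPM, and Srgn, the proteoglycan that holds granule proteins, rose 1.59-fold. Mpo, myeloperoxidase, fell from 41948, 46769 and 46431 CPM in EMPTY to 25454, 25537 and 25838 CPM in CSF3R_ONLY (log2 −0.81, adjusted p = 2.93e-06). The other falls were Prtn3, proteinase 3 (log2 −0.53), and Nkg7, a granule membrane gene (log2 −0.89). Neutrophil elastase, Elane, was at 1500.3, 1439 and 1392 CPM in CSF3R_ONLY and 1509, 1516 and 2727 CPM in EMPTY (adjusted p = 0.114), and cathepsin G, Ctsg, was at log2 −0.18 (adjusted p = 0.281). The Elane value turned on the high EMPTY replicate 3: without that library it was log2 −0.09 (adjusted p = 0.578), while without EMPTY replicate 1 or 2 it passed the test (adjusted p = 0.0402 and 0.0404). Summed over the list, the level was 38421 to 38751 CPM against 53183 to 62505 CPM.

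Genes of the later granules rose almost throughout. Among 15 secondary granule genes 14 rose and 0 fell (median log2 2.45), and among 16 tertiary granule and secretory vesicle genes 14 rose and 2 fell (median log2 3.11). The lactoferrin gene Ltf went from 6.44, 7.88 and 8.21 CPM to 46.998, 51.7 and 48.1 CPM, a 6.52-fold rise. Lcn2, lipocalin 2, which binds iron-carrying siderophores, went from 347, 335 and 609 to 2442, 2370.4 and 2241 CPM. Ngp, neutrophilic granule protein, went from 279, 269.8 and 379 to 1729, 1674 and 1714 CPM (5.51-fold). In all 3 genes every receptor library was above every control, and 44.8% of all tested genes had groups without overlap. Cd177, a surface antigen of neutrophils, rose 29.6-fold and Cybb, the membrane subunit of the oxidase, 16.7-fold. Of the tertiary granule genes, Mmp9, gelatinase B, rose from 0.110, 0.222 and 0.120 CPM to 53.4, 51.5 and 49.97 CPM, with 2, 4 and 2 counts in the EMPTY libraries. The formyl peptide receptor gene Fpr1, through which neutrophils sense bacteria, had no counts in EMPTY and 4.66, 3.88 and 5.07 CPM in CSF3R_ONLY, at least 26.6-fold higher against a floor of 3 counts per library. Mmp25, a membrane-bound metalloproteinase, had 2 counts in EMPTY, and the count ratio was 141 (95% counting interval 38.8 to 1173). Floors and intervals cover counting error only. The larger of the falls in this list was Fcnb, described above.

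Markers of mature neutrophils had 21 of 24 genes risen and 1 fallen (median log2 2.65). S100a8, a subunit of calprotectin, rose from 91.7, 86.4 and 160.1 CPM to 1049, 919.8 and 923 CPM, and its partner S100a9 rose 13.3-fold (log2 3.73, SE 0.235). Cxcr2, the chemokine receptor that calls mature neutrophils from the marrow, went from 21.4, 20.7 and 17.1 CPM to 278, 276 and 256 CPM. Retnlg, a resistin-like gene of mature neutrophils, rose from 0.189 to 33.6 CPM on average, and Asprv1, an aspartic protease gene, rose 81.96-fold. Of 7 NADPH oxidase genes 6 rose. Beside Cybb, the cytosolic subunits Ncf1 and Ncf4 rose by 0.80 and 0.70 on the log2 scale. Monocyte and macrophage genes moved with the neutrophil genes: of 25 listed 18 were tested, and 11 rose and 2 fell. Their summed level was 2642 to 2698 CPM in CSF3R_ONLY against 1575 to 1831 CPM in EMPTY. The complement genes C1qa, C1qb and C1qc, which mark tissue macrophages, had 0 counts in all 6 libraries, which allows up to 0.165 to 0.180 CPM per library. The part of other myeloid cells in the neutrophil result was not tested.

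Transcription factors of granulocytes and monocytes changed in both directions, 11 of 21 up and 5 down, beside 19.9% and 13.2% of all genes. Irf8, which directs progenitors to monocytes and dendritic cells, fell from 9.74, 9.88 and 10.2 CPM to 1.05, 0.636 and 1.10 CPM (log2 −3.42, SE 0.149). Gfi1b, a transcriptional repressor needed for erythroid and megakaryocyte development, rose from 1.38, 1.499 and 1.68 to 19.01, 17.5 and 18.3 CPM. The early growth response factor Egr1 rose 7.54-fold and Klf2, a factor of quiescent leukocytes, 6.29-fold. Myb, which keeps progenitors cycling, fell by 0.54 on the log2 scale. The rises numbered 7 with only the 6 libraries. The falls numbered 2 without CSF3R_ONLY replicate 3 or EMPTY replicate 1, 3 without CSF3R_ONLY replicate 1 or EMPTY replicate 2 and 3 with only the 6 libraries.

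The mast cell protease list had the highest median change of the lists examined. Of 13 tested mast cell protease genes 12 rose and 0 fell, with a median log2 fold change of 5.30. Beside Mcpt1, Mcpt2 and Cma1, granzyme B (Gzmb), a serine protease of cytotoxic cells and some mast cells, went from 0, 0.0555 and 0.959 CPM in EMPTY to 181, 184 and 177 CPM in CSF3R_ONLY. EMPTY replicate 3 held 16 of its 17 EMPTY counts, and without that library the log2 value was 12.32 and not 9.10. Mcpt4, a chymase of connective tissue mast cells, had 2 EMPTY counts, both in replicate 3, and the count ratio was 852 (95% counting interval 236 to 7044); its fitted log2 value was 9.49, or 12.16 without that library. Basophils are marked by Mcpt8, a protease that rose from 79.1, 83.7 and 119 CPM to 527, 533 and 529.7 CPM. Cpa3, carboxypeptidase A of mast cells and basophils, was already present in controls at 839.7, 805 and 1311 CPM and rose to 1869, 1847 and 1793 CPM (1.86-fold). The Cpa3 controls showed the same split as the other proteases, with replicate 3 the highest. Summed over the list, which holds Ctsg and Cpa3, the level was 7025 to 7194 CPM in CSF3R_ONLY against 3727 to 5234 CPM in EMPTY, with the top control again replicate 3.

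Receptors of mast cells and basophils rose too, in 17 of 22 tested genes, and 1 fell (median log2 1.83). Fcer1a (chromosome 1, 173221284 to 173227214, minus strand), the IgE-binding chain, had no counts in any control and was at 19.1, 21.8 and 16.7 CPM in CSF3R_ONLY, at least 113-fold higher. Ms4a2, the beta chain of the same receptor, went from 7.82, 6.94 and 8.09 CPM to 84.03, 83.8 and 81.96 CPM (10.9-fold). Il1rl1, the receptor for interleukin 33, rose 18.3-fold. Csf2rb2, the beta chain of the mouse interleukin 3 receptor, rose from 84.4, 80.3 and 58.6 CPM to 1663, 1688 and 1731 CPM, and its close copy Csf2rb, shared by the receptors for interleukin 3, interleukin 5 and GM-CSF, rose from 813, 811 and 538 to 2951, 3021 and 3111 CPM. Both EMPTY sets of values were lowest in replicate 3. The one fall in the list was Kit, the other receptor by which mast cells are commonly defined.

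Genes for mast cell mediators rose in part. In the histamine, serotonin and heparin list 7 of 13 rose and 1 fell. Hdc, the enzyme that makes histamine, rose from 429, 427 and 407 CPM to 816, 833 and 863 CPM. Tph1, the first enzyme of peripheral serotonin synthesis, had 3 counts in EMPTY and 27.7, 25.7 and 27.3 CPM in CSF3R_ONLY, a count ratio of 474 (95% counting interval 162 to 2303). Without EMPTY replicate 3, which held 2 of these counts, the fitted log2 value was 9.58 and not 8.72. Slc18a2, the vesicle transporter of amines, rose 5.45-fold, and Ndst2, which sulfates heparin, 3.10-fold. Among 13 leukotriene and prostaglandin genes 6 rose and 1 fell, beside 19.9% and 13.2% of all genes. Alox5, 5-lipoxygenase, rose from 18.4, 19.3 and 19.9 CPM to 152, 164 and 159 CPM, and the prostaglandin D synthase gene Ptgds fell from 7.54, 7.16 and 14.7 to 0.233, 0.405 and 0.634 CPM. Leukotriene and prostaglandin genes thus held both a strong rise and a strong fall.

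Factors that direct these lineages had 8 of 16 risen and 2 fallen, beside 19.9% and 13.2% of all genes. The falls numbered 1 without CSF3R_ONLY replicate 1, 2 or 3 and 1 with only the 6 libraries. Gata2 went from 135, 146 and 126 CPM to 483, 523 and 484 CPM (log2 1.87, SE 0.0855), and Gata1, which also drives erythroid cells, from 2.70, 2.94 and 4.67 to 34.8, 35.005 and 34.2 CPM. Xbp1, a factor of secretory cells and of eosinophil survival, rose 1.94-fold. Of 14 listed eosinophil and basophil granule and cytokine genes 9 were tested, and 7 rose and 0 fell. The falls numbered 1 without EMPTY replicate 3 and 1 without the 4 libraries or with voom. With only the 6 libraries 7 of them were tested, and 6 rose and 0 fell. The major basic protein gene Prg2 rose 4.15-fold and its close relative Prg3 7.89-fold. Il6, interleukin 6, rose from 0.440, 0.278 and 0.420 CPM to 8.16, 7.29 and 7.55 CPM. All values of these genes were higher in each receptor library than in each control, and 44.8% of all tested genes had groups without overlap.

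**Figure D2:**
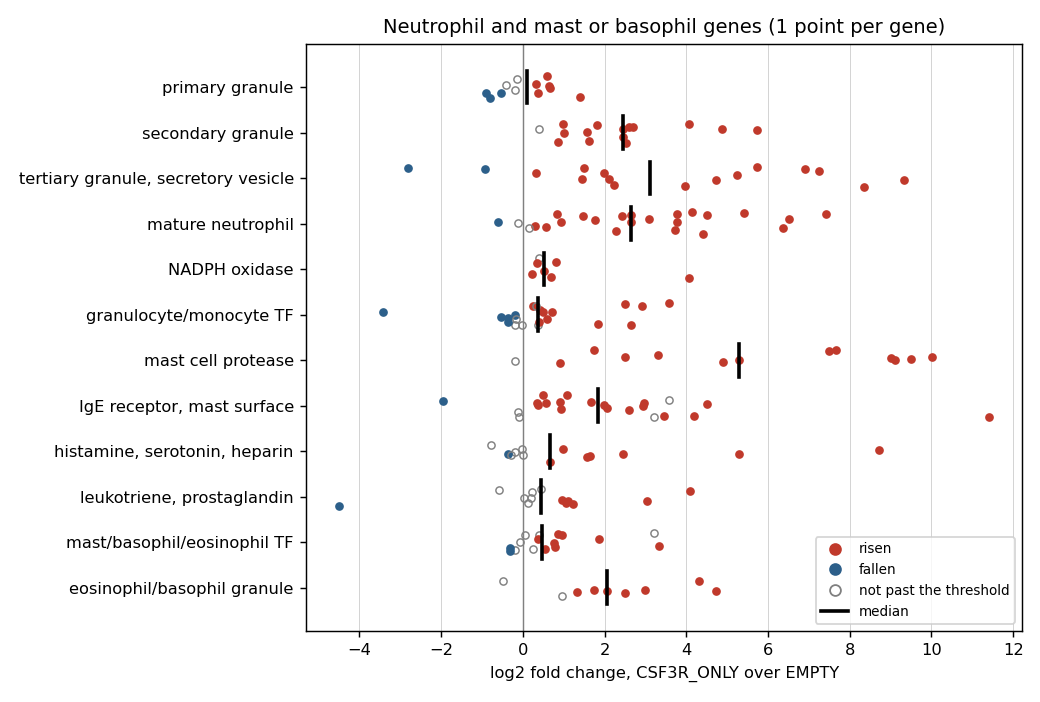
Log2 fold change of CSF3R_ONLY over EMPTY for each tested gene of 12 lists, 1 point per gene. Filled points passed the test (red risen, blue fallen), open points did not, and black bars are list medians. Medians run from 0.10 for primary granule genes to 5.30 for mast cell proteases, and the isolated blue points far to the left are Irf8, Fcnb, Kit and Ptgds.

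Cytokine signalling was described through known targets of STAT3 and STAT5, the receptors that feed them and the ligands. Of 27 tested STAT response genes 20 rose and 4 fell (median log2 0.85). The feedback inhibitor Socs3, which binds the G-CSF receptor, rose from 20.04, 16.8 and 15.8 CPM to 153, 156 and 163 CPM (log2 3.16, SE 0.0920, adjusted p = 7.26e-13). Socs1, an inhibitor of JAK kinases, rose from 0.771, 0.500 and 0.899 to 8.05, 8.39 and 7.78 CPM, and Cish, a STAT5 target that dampens cytokine receptors, from 8.86, 9.16 and 9.23 to 29.9, 32.6 and 31.9 CPM. Another member of the family went the other way: Socs2 was at 3.47, 2.78 and 4.73 CPM in EMPTY and 1.40, 1.504 and 0.692 CPM in CSF3R_ONLY (log2 −1.60, adjusted p = 0.000272). The remaining falls were Myc, Ccnd2 and Ccnd1. Lif, leukaemia inhibitory factor, rose from 0.220, 0 and 0.0599 to 5.25, 6.25 and 5.30 CPM, at a fitted log2 of 5.79, or 7.29 without EMPTY replicate 1, which held 4 of its 5 control counts. Il1r2, the decoy receptor for interleukin 1, rose 13.6-fold to 190.1 ± 7.24 CPM (SD, n = 3), and Bcl3, an atypical IkB protein, 4.35-fold. In each of these genes the 2 sets of libraries did not overlap, as in 44.8% of all tested genes.

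The promoters of the 4 STAT response genes that changed most and had an entry in the RefSeq promoter table (build GRCm38.p6) are shown because STAT factors bind the palindrome TTCNNNGAA. Each run holds the 250 bases before the annotated start, 5′ to 3′ on the gene's strand, with matches to TTCNNNGAA in capitals. Being its own reverse complement, the motif reads alike on both strands. Lif lies at chr11:4257318-4257567 on the plus strand, Il1r2 at chr1:40085843-40086092 on the plus strand, Socs1 at chr16:10785537-10785786 on the minus strand and Socs3 at chr11:117969367-117969616 on the minus strand.
Lif: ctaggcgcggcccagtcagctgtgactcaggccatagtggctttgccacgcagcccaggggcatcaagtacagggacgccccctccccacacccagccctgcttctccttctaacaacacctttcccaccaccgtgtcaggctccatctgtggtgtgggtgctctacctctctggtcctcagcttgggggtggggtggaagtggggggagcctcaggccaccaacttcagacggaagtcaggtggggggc
Il1r2: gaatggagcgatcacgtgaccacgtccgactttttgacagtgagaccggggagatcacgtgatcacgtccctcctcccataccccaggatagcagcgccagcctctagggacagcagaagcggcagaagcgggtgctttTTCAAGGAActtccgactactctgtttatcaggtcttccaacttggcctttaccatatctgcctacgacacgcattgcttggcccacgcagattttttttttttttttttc
Socs1: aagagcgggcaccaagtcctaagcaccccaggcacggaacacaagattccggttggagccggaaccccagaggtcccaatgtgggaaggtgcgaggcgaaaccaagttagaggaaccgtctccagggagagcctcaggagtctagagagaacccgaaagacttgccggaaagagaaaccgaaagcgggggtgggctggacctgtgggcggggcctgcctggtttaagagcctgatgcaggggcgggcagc
Socs3: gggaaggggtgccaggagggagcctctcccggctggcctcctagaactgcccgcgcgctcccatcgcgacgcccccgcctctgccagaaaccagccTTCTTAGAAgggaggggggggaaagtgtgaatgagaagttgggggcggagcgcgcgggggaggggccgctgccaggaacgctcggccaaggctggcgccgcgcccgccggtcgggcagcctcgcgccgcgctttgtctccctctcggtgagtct
Il1r2 held TTCAAGGAA with its centre 107 bases before the start and Socs3 held TTCTTAGAA with its centre 150 bases before it, whereas the windows of Lif and Socs1 held no match. Of the 21 response genes with an entry, 3 held the motif, the third being Bcl6, a repressor that rose 3.02-fold. The motif was found in 2306 of all 32851 promoter windows (7.02%). Counted per gene, with a match in any of its windows, it was found in 708 of 9785 tested genes (7.24%). On that count it was found in 93 of 810 genes risen at least 2-fold (11.5%) and in 20 of 299 fallen at least 2-fold (6.69%). These shares are descriptions without a test, and a match is not shown to be a binding site.

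Parts of the signalling chain itself rose. Of 25 JAK-STAT components 13 rose, 0 fell and 12 did not pass the test, beside 19.9% risen and 13.2% fallen of all genes. Their median log2 was 0.38, or 0.24 without EMPTY replicate 3. Jak2, the kinase bound to the receptor, rose by 1.12 on the log2 scale, Stat3 by 0.77 and the adaptor gene Gab2 by 0.996. Among 31 cytokine receptor genes 19 rose and 6 fell. Il7r, the interleukin 7 receptor chain best known from lymphocytes, went from 0.110, 0 and 0.120 CPM to 28.7, 27.4 and 29.3 CPM. Of 36 secreted cytokine and chemokine genes 25 passed the filter on low counts. Of these 15 rose and 2 fell (median log2 2.13), the falls numbering 1 without EMPTY replicate 1. With only the 6 libraries 18 of them were tested, and 13 rose and 2 fell (median log2 2.40). Csf1, the growth factor of macrophages, was at 24.5, 23.5 and 17.1 CPM in EMPTY and 362, 360.5 and 361 CPM in CSF3R_ONLY, a 16.6-fold rise with almost no spread among the receptor libraries. Csf3, which encodes the ligand of the receptor, and Il3 had 0 counts in all 6 libraries, which allows up to 0.165 to 0.180 CPM per library.

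Feedback genes of the ERK pathway, the kinase cascade downstream of RAS, had 6 of 24 risen (10 with voom) and 7 fallen, beside 19.9% and 13.2% of all genes. Their median log2 of 0.03 crossed 0, at −0.08 to 0.20 when 1 library was left out. The ERK phosphatase gene Dusp6 fell from 33.1, 34.6 and 33.4 CPM to 16.97, 15.7 and 17.5 CPM and the inhibitor Spry1 fell by 1.21 on the log2 scale, while the immediate early genes Egr1 and Ier3 rose by 2.91 and 1.46. NF-kB subunit and feedback genes had 11 of 17 risen and 0 fallen, 9 to 12 risen when 1 library was left out. The subunit gene Relb rose 3.82-fold, the regulator Nfkbiz 2.38-fold and Birc3, an inhibitor of cell death, 2.16-fold. Of 26 interferon response genes 11 rose, 1 fell and 14 did not pass the test, beside 19.9% risen and 13.2% fallen of all genes. The falls numbered 0 without CSF3R_ONLY replicate 1 or 2 or EMPTY replicate 3, 3 without EMPTY replicate 2, 0 with the replicate block or with only the 6 libraries, 2 with voom and 3 under library sizes alone. The antiviral synthetases Oas2 and Oas3 rose by 3.72 and 2.60 and the GTPase gene Gbp2 by 3.01, all from under 1 CPM in EMPTY. The fall was the related gene Oasl1 (log2 −1.67, adjusted p = 0.0476 by edgeR's test). Without EMPTY replicate 3 it was at log2 −0.98 (adjusted p = 0.360). The list thus did not move as a whole.

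**Figure D3:**
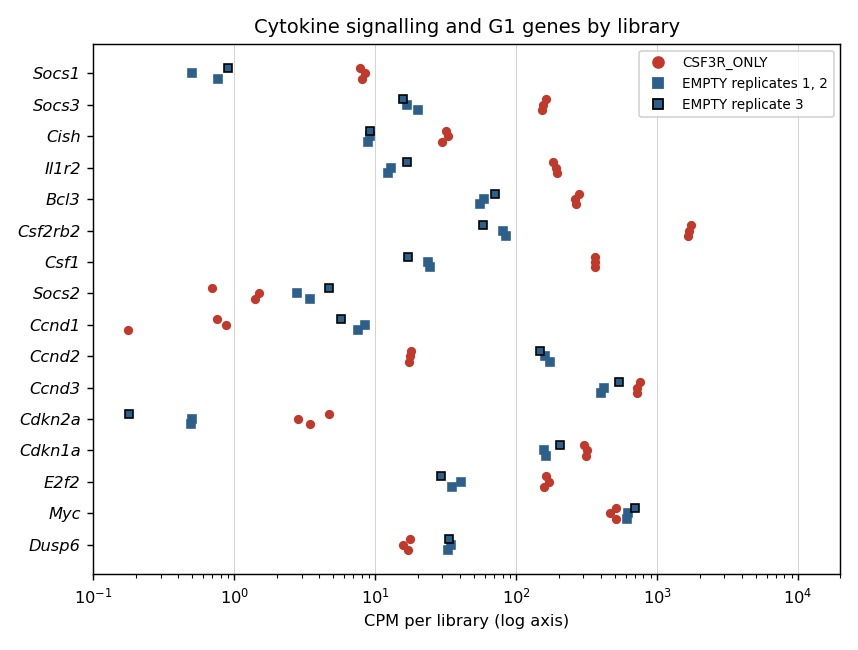
CPM of 16 signalling and G1 genes in each library, on a log axis, with circles for CSF3R_ONLY and squares for EMPTY (replicate 3 outlined). Socs1, Socs3 and Cish lie higher in the receptor libraries, while Socs2, Ccnd1, Ccnd2, Myc and Dusp6 lie lower. No gene shown has overlapping groups, and neither do 44.8% of all tested genes.

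Growth control was read from cyclins, replication, mitosis and ribosome genes. The D-type cyclins, which carry growth signals into G1, split. Ccnd2 fell 9.07-fold as given above, and Ccnd1 fell from 7.49, 8.49 and 5.69 CPM to 0.175, 0.868 and 0.749 CPM (log2 −3.58), whereas Ccnd3, the D-type cyclin of maturing granulocytes and lymphocytes, rose from 401, 422 and 534 to 726, 716 and 759.6 CPM. Ccnd1 and Ccnd2 were the 2 falls among 21 genes of the G1 list, in which 14 rose, and the falls numbered 4 without the 4 libraries. Inhibitors of cyclin-dependent kinases were among the rises: Cdkn1a, which encodes p21, rose from 162, 158 and 206 CPM to 312, 318 and 301 CPM, and Cdkn2a from 0.495, 0.500 and 0.180 to 3.44, 2.84 and 4.67 CPM. E2f2, a factor of S phase entry, rose 4.67-fold.

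Few S phase genes passed the test. DNA replication genes had 3 of 36 risen and 3 fallen, near or below the shares over all genes, with a median log2 of −0.06. The rises numbered 1 without CSF3R_ONLY replicate 1 or 3, 1 with only the 6 libraries or with no filter or under library sizes alone and 6 without the 4 libraries or with voom, and the falls 5 without EMPTY replicate 2, 8 with voom, 9 under library sizes alone and 10 without the 4 libraries. The ribonucleotide reductase subunit Rrm2 rose by 0.51 and the helicase subunit Mcm6 fell by 0.37 on the log2 scale. In the mitosis list 13 of 30 rose and 0 fell, beside 19.9% and 13.2% of all genes. The changes were small (median log2 0.18), and with only the 6 libraries fitted 5 rose. Cdc25b, the phosphatase that triggers mitotic entry, rose by 1.17 and the spindle gene Nusap1 by 0.67.

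Ribosome biogenesis and MYC target genes fell together: 22 of 32 fell and 4 rose (median log2 −0.34), and 19 to 27 fell when 1 library was left out. Myc itself went from 615, 626 and 702 CPM to 509, 467 and 508 CPM (log2 −0.39, adjusted p = 0.000995). The ribosomal RNA processing gene Wdr12 fell by 0.66, the mitochondrial chaperonin Hspe1 by 0.74 and the spermidine synthase Srm by 0.64 on the log2 scale. The rises included Mxd1, a MYC antagonist that rose 3.38-fold, and Mycn, a MYC relative that rose from 0.307 to 2.57 CPM on average. Cytosolic ribosomal protein genes had 0 of 50 risen and 1 fallen. The falls numbered 0 without CSF3R_ONLY replicate 1 or 3 or EMPTY replicate 1 or 2 and 0 with no filter, and the rises 1 without EMPTY replicate 3, 4 with voom and 9 without the 4 libraries. Their median was −0.16 with all libraries and 0.07 without EMPTY replicate 3, so its direction rested on that library.

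Of 12 BCL2 family genes, which control cell survival, 4 rose and 1 fell, beside 19.9% and 13.2% of all genes. The rises numbered 2 without CSF3R_ONLY replicate 1 or 2 or EMPTY replicate 2, 2 with only the 6 libraries or with no filter or under library sizes alone and 8 with voom, and the falls 2 without CSF3R_ONLY replicate 3 or EMPTY replicate 3, 2 with DESeq2 or under library sizes alone and 3 without the 4 libraries or with voom. Mcl1, a survival factor of neutrophils, rose from 179.9, 174 and 183 CPM to 323, 322 and 319.8 CPM, and Bcl2 fell from 33.6, 31.2 and 33.9 to 15.98, 16.2 and 18.7 CPM. Bmf, a promoter of apoptosis, rose 3.65-fold. Among 19 p53 response genes 9 rose and 1 fell, beside the same shares of all genes. The falls numbered 0 without CSF3R_ONLY replicate 2 or 3 or EMPTY replicate 1 or 2, 2 without EMPTY replicate 3, 0 with only the 6 libraries and 2 without the 4 libraries or with voom. Zmat3, an RNA-binding target of p53, rose 4.90-fold and the death receptor gene Fas 3.17-fold.

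Metabolic genes divided by pathway. Glycolysis genes had 9 of 23 risen and 1 fallen (median log2 0.21), beside 19.9% and 13.2% of all genes. When 1 library was left out 7 to 12 rose. The rises numbered 5 with only the 6 libraries and 15 without the 4 libraries or with voom, and the falls 2 without EMPTY replicate 3 and 2 without the 4 libraries or with voom or under library sizes alone. Slc2a3, a glucose carrier, rose from 36.5, 35.7 and 29.7 CPM to 90.7, 96.2 and 95.97 CPM, and Slc16a3, which exports lactate, from 260.1, 264 and 304 to 561, 565 and 598 CPM. Aldoc, aldolase C, rose 3.97-fold. Hif1a, the oxygen-regulated factor that neutrophils use for glycolysis, rose from 192, 195 and 160.0 CPM to 481, 467 and 487 CPM. Its target Car9, a carbonic anhydrase, fell by 0.66 on the log2 scale. Among 18 hypoxia response genes 5 rose and 4 fell (2 without EMPTY replicate 1 and 2 with only the 6 libraries), beside 19.9% and 13.2% of all genes. The pentose phosphate and NADPH list had 8 of 16 risen and 1 fallen (2 under library sizes alone). G6pdx, which makes the first NADPH of that pathway, rose from 384, 358 and 482 to 862, 875 and 839 CPM. The antioxidant genes Hmox1, Gclm and Nqo1 rose by 1.90, 0.89 and 3.17 on the log2 scale.

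In the citric acid cycle list 0 of 25 rose and 7 fell (median log2 −0.14), beside 19.9% and 13.2% of all genes. The falls included isocitrate dehydrogenase Idh2 (log2 −0.55) and fumarase Fh1 (log2 −0.37). The falls numbered 3 without CSF3R_ONLY replicate 1, 4 without CSF3R_ONLY replicate 2 or 3 and 3 with only the 6 libraries, and the rises 1 without EMPTY replicate 2, 2 without EMPTY replicate 1, 1 without the 4 libraries or with voom and 2 with the replicate block. Nuclear genes of oxidative phosphorylation had 0 of 45 risen and 2 fallen, and their median moved from −0.16 to 0.01 without EMPTY replicate 3. The falls numbered 0 without CSF3R_ONLY replicate 1, 2 or 3 or EMPTY replicate 3, 7 without EMPTY replicate 2, 0 with only the 6 libraries, 1 with voom or with no filter and 5 under library sizes alone, and the rises 2 without EMPTY replicate 3, 3 with voom and 8 without the 4 libraries.

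Cholesterol synthesis genes rose as a group, with 20 of 24 risen and 0 fallen and a median log2 of 0.60, and 19 to 20 rose when 1 library was left out. Fdps, which makes farnesyl pyrophosphate, rose from 8.09, 7.66 and 7.07 CPM to 15.5, 11.7 and 14.3 CPM (1.81-fold). Its groups did not overlap, as for 44.8% of all tested genes. Of 20 fatty acid synthesis and storage genes 9 rose and 1 fell (3 without the 4 libraries). The enzymes of the last step of triglyceride synthesis, Dgat1 and Dgat2, rose 2.79-fold and 2.74-fold, and the desaturase Scd1 2.65-fold. Fatty acid oxidation genes had 1 of 16 risen and 3 fallen (7 under library sizes alone), beside 19.9% and 13.2% of all genes. The dehydrogenase Acadl was at 0.64 and Hadh at −0.42. Lysosome genes rose in 22 of 29 members and fell in 0 (median log2 0.44), 19 to 25 rising when 1 library was left out.

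Amino acid synthesis and stress genes fell more often than they rose, with 11 of 23 fallen and 5 risen (median log2 −0.13), the rises numbering 3 without CSF3R_ONLY replicate 1, 2 or 3 and 3 with only the 6 libraries. The serine synthesis genes Phgdh and Psat1 fell by 0.54 and 0.56, asparagine synthetase Asns by 0.57, proline synthesis gene Pycr1 by 1.07 and cystathionase Cth by 1.76 on the log2 scale. Phgdh was at 204, 193 and 224 CPM in EMPTY and 143, 139.7 and 145 CPM in CSF3R_ONLY. Among the rises were the stress regulator Nupr1 (log2 1.59) and Slc7a5, the large neutral amino acid transporter (log2 0.67). The list thus held falling synthesis enzymes beside a rising transporter. Endoplasmic reticulum stress genes had 2 of 21 risen and 6 fallen (3 with only the 6 libraries, 10 with voom and 11 without the 4 libraries), beside 19.9% and 13.2% of all genes. The chaperone Hyou1 was at −0.36. In the arginase and polyamine list 4 rose and 6 fell of 17, beside the same shares of all genes. Ass1, which rebuilds arginine from citrulline, fell from 66.2, 65.8 and 81.1 CPM to 26.4, 26.8 and 27.1 CPM, opposite to the arginine-using Nos2. Iron and heme genes had 3 of 16 risen and 3 fallen, near the 19.9% and 13.2% of all genes, with the iron exporter Slc40a1 up 4.24-fold and the ferrireductase Steap3 down 1.94-fold.

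**Figure D4:**
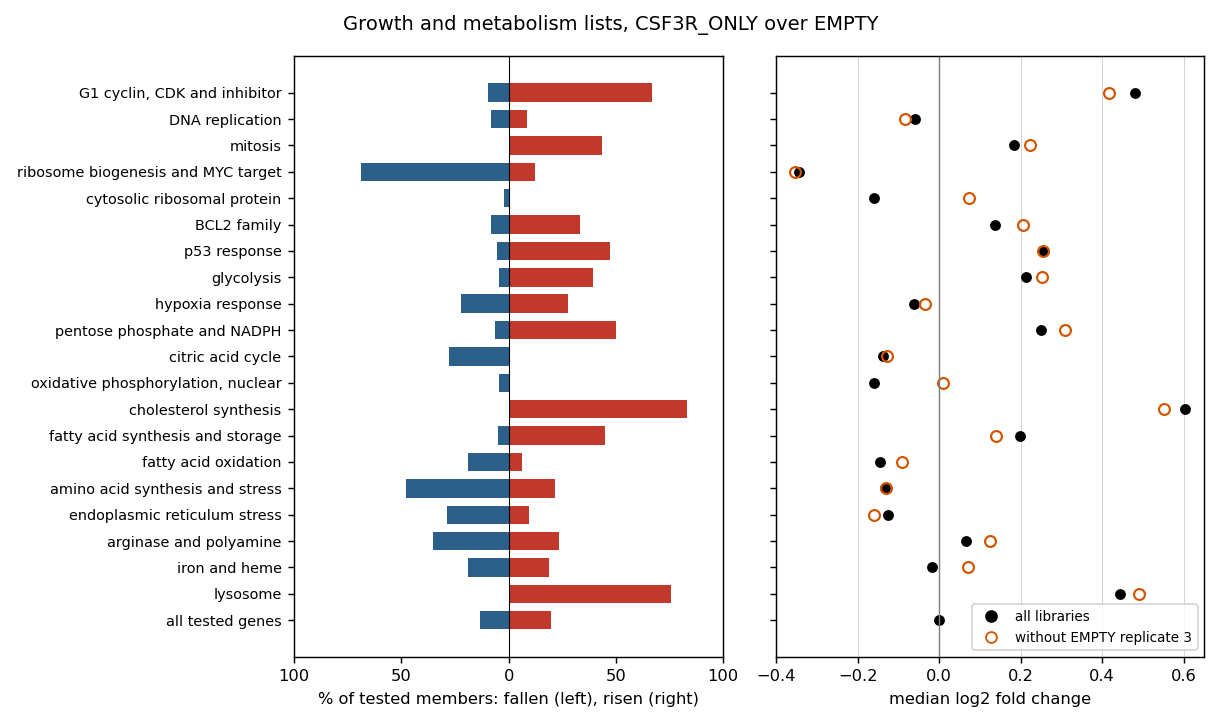
Growth and metabolism lists in CSF3R_ONLY over EMPTY. The left panel gives the percent of tested members fallen (blue) and risen (red), with all tested genes at the bottom (13.2% and 19.9%). The right panel gives the median log2 fold change with all libraries (filled) and without EMPTY replicate 3 (open), which cross 0 for ribosomal protein, oxidative phosphorylation, and iron and heme genes.

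Markers of other lineages and of progenitors also moved. Within the monocyte and macrophage list, Lgals3, galectin 3, rose from 24.3, 24.7 and 39.97 CPM to 174, 176 and 171 CPM, Fcgr1, the high-affinity IgG receptor, 5.99-fold, and Gpnmb, a lysosomal membrane glycoprotein, 12.6-fold. Of 18 erythroid genes 11 were tested, with 8 risen and 0 fallen. Of 15 megakaryocyte genes 11 were tested, with 6 risen and 0 fallen. The erythroid factor Klf1 went from 0.661, 0.666 and 1.38 CPM to 6.12, 4.80 and 5.07 CPM, the platelet glycoprotein Gp1ba rose 10.4-fold and the integrin chain Itga2b 3.17-fold. Gata1 and Itga2b also stand in the mast cell lists. Among 8 dendritic cell genes 1 rose and 3 fell, beside 19.9% and 13.2% of all genes. The MHC class II gene H2-Ab1 went from 4.13, 3.33 and 6.29 CPM to 0.933, 0.636 and 0.576 CPM. Lymphoid genes had 2 risen (1 without EMPTY replicate 1 and 1 with only the 6 libraries or with no filter) and 3 fallen of 8, beside the same shares of all genes. Their summed level was 139 to 142 CPM in CSF3R_ONLY against 161 to 252 CPM in EMPTY, with Cd3e, Pax5 and Ms4a1 at 0 counts in all 6. Stromal and endothelial genes had 3 of 4 risen (1 with only the 6 libraries), at 375 to 385 CPM against 298 to 327 CPM, with Cdh5, Lepr, Dcn and Lum at 0 counts. The part of such cells in the results above was not tested.

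Of 23 genes of stem cells and progenitors 8 rose and 9 fell, beside 19.9% and 13.2% of all genes. Ly6a, the surface antigen Sca-1, rose from 0.495, 0.167 and 0.539 CPM to 50.6, 58.1 and 52.6 CPM. Beside Kit, the progenitor antigen Cd34 fell from 248, 239 and 219.9 to 162, 169 and 163 CPM and the factor Sox4 by 1.58 on the log2 scale. Markers of immature cells thus moved in both directions. In the HOX and MEIS list 5 of 11 rose and 2 fell, and the rises numbered 1 with only the 6 libraries and 3 with no filter. Hoxa7 and Hoxa9, homeobox genes of myeloid progenitors, were at 1.10, 1.05 and 1.199 CPM and 0.606, 0.777 and 0.959 CPM in EMPTY and had no counts in CSF3R_ONLY, at least 6.43-fold and 4.49-fold lower. Hoxb8, at 428, 449 and 492 CPM in CSF3R_ONLY and 324, 374 and 179 CPM in EMPTY, passed the test (log2 0.64, adjusted p = 0.0249), but not without EMPTY replicate 3 (log2 0.36, adjusted p = 0.0786), without CSF3R_ONLY replicate 2 or 3 (0.0541 and 0.0827), with library sizes alone (0.0585), with no filter on low counts (0.132) or with only the 6 libraries (0.109).

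The same receptor was also present in RUNX1-ETO_FIRST, which can be set against RUNX1-ETO_ONLY. These 6 libraries are not in the groups compared above, but all 15 libraries shared the filter, the fit and its estimate of spread. The 2 sets of calls are therefore not fully independent. There 3454 genes passed (26.3%), 2097 up and 1357 down, and 5157 passed without the 4 libraries. Genes called in both comparisons numbered 2008, which is 46.2% of the calls without the fusion and 58.1% of those with it, and 1773 of them had the same direction. The effect itself differed between the 2 backgrounds for 2078 genes (15.8%), including 1564 of the 4347 genes called without the fusion. Mcpt1 rose by 10.01 without and 10.01 with the fusion (log2, difference adjusted p = 0.997). That match rested on EMPTY replicate 3: when it was left out, Mcpt1 rose by 12.86 without the fusion and 10.01 with it (difference −2.86, adjusted p = 0.0171). The Mcpt2 difference was −3.57, or −5.15 without that library. Ccnd2 was at −3.18 and −0.13 (difference 3.05, adjusted p = 1.63e-09) and Socs2 at −1.60 and 3.13 (difference 4.73, adjusted p = 3.67e-07). All values with the fusion here come from RUNX1-ETO_FIRST against RUNX1-ETO_ONLY. In CSF3R_FIRST, the other group with both, Ccnd2 averaged 15.1 CPM, against 59.5 CPM in RUNX1-ETO_FIRST and 17.65 CPM in CSF3R_ONLY. Pou2f2 averaged 15.9, 16.2 and 2.59 CPM in the same 3 groups. The part of the order was not tested. Of the 14 secondary granule genes that rose with the receptor alone, 6 also rose with it in fusion cells, 6 fell and 2 did not pass, against 8, 1 and 5 of the 14 tertiary granule genes that rose. Ltf (log2 −1.44) and Ngp (log2 −0.62) were among those that fell. Mmp8 rose in both, by 5.72 and 1.05, and S100a8 was at −0.44 (adjusted p = 0.162). Lcn2 rose in both, by 2.45 and 0.63. Fcnb fell in both, by 2.82 and 2.95 on the log2 scale.

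**Figure D5:**
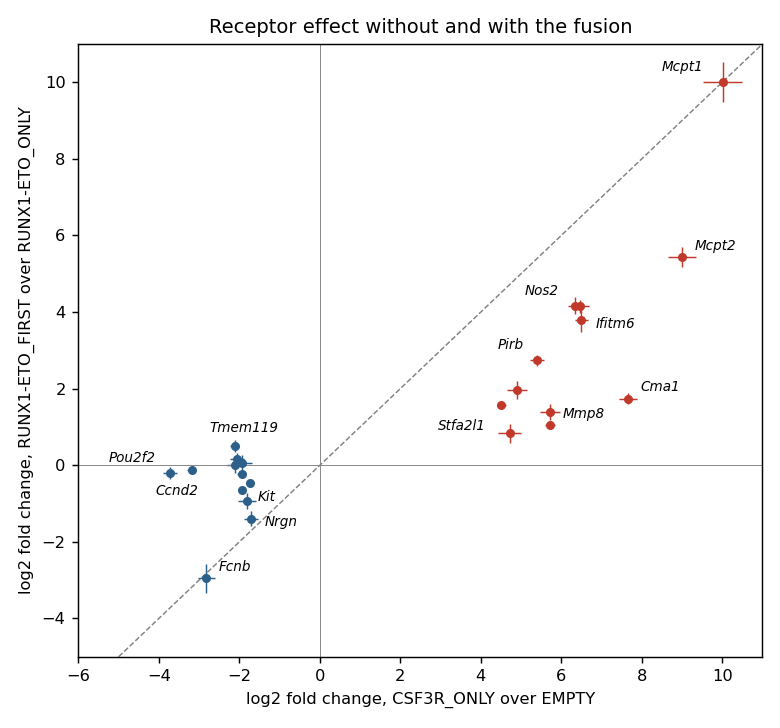
Log2 fold change between cells with and without the receptor, in cells without the fusion (x axis, CSF3R_ONLY over EMPTY) and with it (y axis, RUNX1-ETO_FIRST over RUNX1-ETO_ONLY), for the 12 most risen (red) and 12 most fallen (blue) genes. Bars are standard errors, taken as the absolute log2 fold change over the square root of the test's F, and the dashed line marks equal values. Mcpt1 and Fcnb lie on or near the line, Mcpt1 at 10.01 on the x axis with all libraries but at 12.86 without EMPTY replicate 3, while most other genes lie nearer to 0 on the y axis; the genes were chosen by the x value.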

How the data were processed

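RNA of the HoxB line was extracted with a column kit and DNase and made into strand-specific mRNA libraries on the DNBSEQ platform, per the labels' protocols. The authors deposited raw read counts per gene for 15 libraries in 5 groups of 3, and STAR, Trimmomatic, DESeq2 and the mm10 build are listed, without roles or versions, per the submitters' processing notes. Neither the counting program nor its use of strand is stated in those sources, so overlapping genes may share reads. The entry with no gene name (0.0179% to 0.0305% of counts) was left out.

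Counts were tested with edgeR 4.0.16 (R 4.3.3): TMM factors, the default filter on low counts, 13123 of 52328 entries tested, a robust quasi-likelihood F test (two-sided) with 5 group means over all 15 libraries (10 residual degrees of freedom), and Benjamini-Hochberg adjustment over all tested genes, called at 0.05. Totals of 17007437 to 18178292 counts per library set a floor of 3 counts at 0.165 to 0.180 CPM in the 6 libraries compared. Log2 CPM used a prior count of 2. Each SE is the absolute log2 fold change over the square root of the test's F, and was not fitted separately. Shares of a gene list are over its tested members. The filter used all 15 libraries, so members low in EMPTY could pass it through groups where they were high. Tested were 8 of 17 listed dendritic cell genes, 8 of 22 lymphoid, 4 of 14 stromal and endothelial and 11 of 21 HOX and MEIS genes. Also tested were 9 of 14 eosinophil and basophil, 26 of 34 interferon response and 12 of 18 BCL2 family genes. Positions come from GENCODE on mm10, matched for 12799 tested genes. Alternatives were library sizes alone, DESeq2 1.42.0, limma 3.58.1 voom with sample weights, no filter, only the 6 libraries, a replicate block and libraries left out.

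The 12 largest rises and 12 largest falls were named among called genes whose libraries did not overlap and whose mean log2 CPM reached 3, leaving out unnamed gene models, beside Csf3r and, from each list, up to 4 called members with the largest change and up to 2 abundant members not called. The members and the 48 gene lists were chosen with earlier results of these data known. A further 30 genes fall outside that rule and were chosen after their values were seen: Hoxb8, Prtn3, Ngp, Lcn2, S100a8, S100a9, Cxcr2, Myb, Cpa3, Csf2rb, Hdc, Prg2, Bcl6, Socs3, Cish, Socs2, Stat3, Csf1, Dusp6, E2f2, Cdkn1a, Ccnd3, Myc, Srm, Psat1, Phgdh, Asns, Klf1, Sox4 and Cd34. Some genes are not reported here.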

Additional observations from a re-analysis of the deposited data

Results flagged for a closer look

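For 2078 of 13123 genes the effect of the receptor differed between cells with the fusion and cells without it, by edgeR's test of that difference with an adjusted p of 0.05. Among the 12 largest rises with the receptor alone, 11 differed and had a smaller fold change with the fusion. A smaller fold change was not always a lower level. In RUNX1-ETO_FIRST and CSF3R_ONLY, Mcpt2 averaged 477 and 354 CPM, Cma1 945 and 359 CPM and Tarm1 550 and 150 CPM. The rest of the 11 averaged lower in RUNX1-ETO_FIRST than in CSF3R_ONLY. Cma1 was already at 283 CPM in RUNX1-ETO_ONLY, against 1.79 CPM in EMPTY. On the log2 scale, the effect with the fusion minus the effect without it differed for Mcpt2 by −3.57, Cma1 by −5.92, Ifitm6 by −2.72, Tarm1 by −2.32, Nos2 by −2.19, Stfa2 by −4.33, Mmp8 by −4.67, Pirb by −2.66, Csta2 by −2.94, Stfa2l1 by −3.88 and Pilra by −2.94. Among the 12 largest falls, 9 differed and lay nearer to 0 with the fusion, Pou2f2 by 3.53, Ccnd2 by 3.05, Tmem119 by 2.61, Nebl by 2.11, Nav2 by 2.21, Ldlrad4 by 1.72, Kit by 1.29, Met by 1.99 and Slc43a1 by 1.26. Of these, Tmem119 changed direction and was called risen with the fusion (log2 0.50, adjusted p = 0.0239 by edgeR's quasi-likelihood test). Fcnb, H1f10 and Nrgn showed no difference past the threshold, and neither did Mcpt1 with all libraries. Without EMPTY replicate 3, an alternative chosen after seeing the data, the Mcpt1 difference was −2.86 (adjusted p = 0.0171) and the Mcpt2 difference −5.15. These genes were chosen for large values without the fusion. The effect with the fusion is RUNX1-ETO_FIRST against RUNX1-ETO_ONLY, and CSF3R_FIRST, which also carried both, took part only in the fit.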

How the results depend on the processing

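The comparison of CSF3R_ONLY with EMPTY called 4347 genes as reported and 4580 with library sizes alone, 4576 with DESeq2, 6030 with sample-weighted limma voom, 4061 with no filter on low counts and 3155 with only the 6 libraries. Leaving out 1 library gave 3502 to 4495 calls. When the 4 libraries low in long transcripts were left out 6166 genes passed, and the falls numbered 2835 against 1730. The difference between the effects with and without the fusion called 2078 genes as reported, 3490 with voom and 3466 without those 4 libraries, and 1644 to 2338 with 1 library left out. The causes of these changes were not tested. Of 157 named genes, which leave out Oasl1, 1 lost its call under some alternative (Hoxb8), 1 gained one (Elane) and 0 changed direction. Oasl1 lost its call without EMPTY replicate 3 (adjusted p = 0.360 by edgeR's test). Same-numbered libraries showed little shared deviation in CSF3R_ONLY and EMPTY (correlations −0.0535, 0.0302 and −0.0439) or in the fusion groups (−0.0975, 0.176 and −0.121). With 3 libraries per group such correlations cannot exclude pairing, and the main fit did not pair libraries by number. A fit with a replicate block called 4549 genes, and 3573 with the fusion and 2155 for the difference. Counts near the floor of 3 limit what can be said of Fcer1a, Fpr1, Mmp9, Retnlg, Il7r, Mcpt4, Tph1, Mmp25, Hoxa7 and Hoxa9.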
